A study of Mus musculus with 6 samples.

Results

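Macrophages of embryonic mouse skin were studied in 6 libraries of whole dorsolateral (flank) skin, in which the RNA of single cells was counted. A cell was counted as a macrophage when it had at least 8 UMIs (unique molecular identifiers, counted RNA molecules) of the complement C1q genes C1qa, C1qb and C1qc together, at least 3 UMIs of Tyrobp and Fcer1g together, at most 5 UMIs of the mast cell gene Cpa3 and at most 3 UMIs of the keratin genes Krt5 and Krt14 together. The rule found 750 macrophages among 40653 kept cells (1.84%), those with 500 or more genes and no more than 10% of UMIs from mitochondrial genes. The loss-of-function (LOF) embryos were PDGFRalphaCreER(Lo);beta-catfl/fl;mTmG on the CD1 background, with 1 library at embryonic day (E) 14.5 and 1 at E13.5. Their Cre recombinase is driven by Pdgfra, a gene of dermal fibroblasts and not of macrophages, removes floxed beta-catenin after tamoxifen, and switches the mTmG reporter from tdTomato to eGFP. Tamoxifen was given by gavage at E11.5. The controls were labelled WT on the CD1 background, with 2 libraries at E14.5 and 2 at E13.5, and the records describe tamoxifen for LOF mice alone, so genotype and tamoxifen cannot be told apart. Every library pooled skin of 3 to 4 embryos, and only cells that excluded the dye DAPI were sorted.

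Macrophages of the embryo derive from the yolk sac and fetal liver and settle in the skin before hair follicles form. They depend on the receptor encoded by Csf1r, clear dying cells and debris through scavenger receptors, recycle the iron and lipid they take up, and release chemokines that draw other leukocytes. Circulating monocytes, marked in mouse by Ccr2, Ly6c2 and Plac8, can enter tissue and turn into macrophages.

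Members numbered 158 in the E14.5 LOF library (1.77% of kept cells, exact 95% interval 1.51 to 2.07) and 139 in the E13.5 LOF library (2.10%, 1.77 to 2.47). In the E14.5 controls they numbered 100 (1.60%, 1.30 to 1.94) and 119 (2.03%, 1.69 to 2.43), and in the E13.5 controls 110 (1.58%, 1.30 to 1.90) and 124 (2.06%, 1.71 to 2.45). The E13.5 LOF share was the highest and the E14.5 LOF share lay within the range of the controls, the interval of each library overlapped that of every other, and the shares of the control stages overlapped. Sums of UMIs over the members of a library ranged from 1182883 to 2303916 in library totals of 53461986 to 86446575 UMIs. The median member had 8560 to 15514 UMIs by library. High scores for doublets (a barcode that holds more than 1 cell) were more frequent in members, at 8.87% to 22.8% by library, than in all kept cells, at 4.68% to 7.14%. Of 41594 barcodes 944 occurred in 2 libraries and 7 in 3, and no barcode was a member in more than 1 library. These intervals cover counting error only.

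The reporter went against the WT label of the controls. tdTomato, which WT mice should lack, was found in keratin-high cells (20 or more Krt5 and Krt14 UMIs) of every control library. The share was 25.3% and 63.5% in the E14.5 controls and 99.3% and 96.1% in the E13.5 controls. In the E14.5 and E13.5 LOF libraries it was 24.9% and 98.8%. For eGFP 2 control libraries went against the label. eGFP, which should need Cre, was found in 61.9% of Pdgfra-positive cells of the E14.5 LOF library and 51.4% of the E13.5 LOF library. Among the E14.5 controls the share was 6.35% in replicate 1 and 57.0% in replicate 2, and among the E13.5 controls 2.88% in replicate 1 and 75.4% in replicate 2. In macrophages eGFP was found in 15.8% (exact 95% interval 10.5 to 22.5) of the E14.5 LOF members and 20.1% (13.8 to 27.8) of the E13.5 LOF members, against 6.00% and 3.36% in the E14.5 controls and 8.18% and 4.84% in the E13.5 controls. The shares in LOF macrophages were thus above every control library and below the Pdgfra-positive cells of the same library. Cpa3-high cells, which should also lack the Cre, had 9.09% and 19.7% in the E14.5 and E13.5 LOF libraries and 2.13% to 20.0% in the controls, and the exact intervals of both cell types overlapped within each LOF library. Where the eGFP in macrophages came from was not tested. Results that rest on the control replicates 2 are given below with and without them.

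Genes the rule did not use fitted the label. Values are UMIs per 1000000 summed over the members of a library (CPM), and since the cells were selected by some of these genes the comparison with other cells is a description with no test. The share of all genes that were higher in members is not given here. Counts of list genes higher than in other cells, here and below, thus have no background. Csf1r averaged 376.5 CPM (range over 6 libraries 350 to 406) in macrophages and 1.75 CPM in all other kept cells, and 724 of 750 members (96.5%) had a UMI of it. All 13 measured genes of a macrophage identity list were higher in members than in other cells of every library, among them Aif1, Adgre1 (F4/80) and the lysozyme gene Lyz2. Spi1, which encodes the myeloid transcription factor PU.1, averaged 362 CPM against 3.57 CPM in other cells, and Maf, a transcription factor of tissue macrophages, 794 CPM against 26.5 CPM. Of 15 transcription factor genes 10 were higher in every library, and the red pulp macrophage factor Spic was at 0 to 5.77 CPM. Of the summed markers of other cells, those of keratinocytes were at 16.9 to 56.8 CPM in members and 491 to 1286 CPM in other cells, the mast cell markers at 4.13 to 51.9 CPM against 91.9 to 631 CPM and the fibroblast markers at 339 to 1950 CPM against 3710 to 8879 CPM. Monocyte markers were higher in members, at 65.9 to 314 CPM, against no more than 27.6 CPM in other cells. Red cell markers, haemoglobin genes among them, were at 10909 to 15062 CPM in members of 5 libraries and 305 CPM in E13.5 control replicate 2, against 752 to 5030 CPM in other cells. Neutrophil markers were at 632 CPM in members of E14.5 control replicate 1, against 58.0 CPM in its other cells, and at no more than 5.77 CPM in members of the other 5 libraries. Cd207, which defines Langerhans cells, was at 0 in members of all 6 libraries, as were Cd3e of T cells, Xcr1 and Clec9a of dendritic cells, and Ocstamp of osteoclasts. Of 9 microglia genes 4 were higher than in other cells of every library. P2ry12 was at 21.4 to 37.2 CPM, Tmem119 was lower than in other cells, and the microglial factor Sall1 was at 0.

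**Figure D1:**
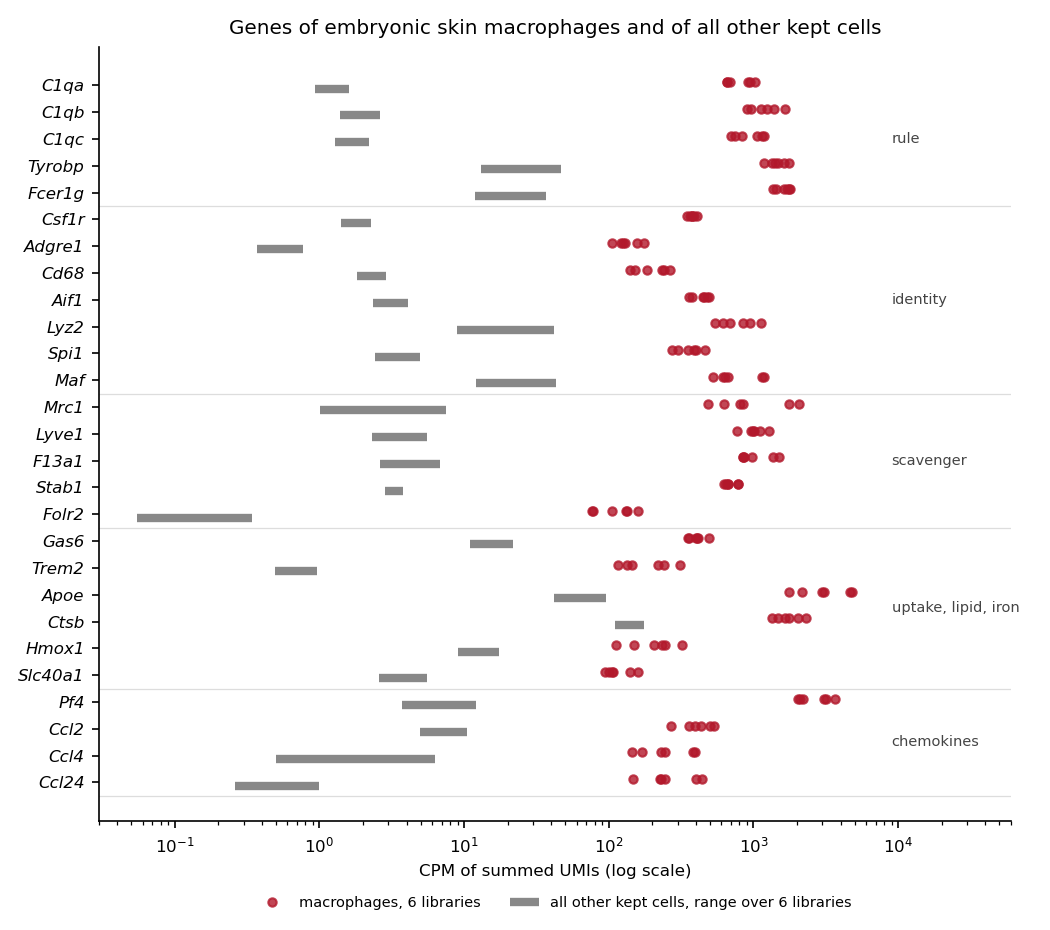
Level of 27 genes in macrophages (1 point per library, 6 libraries) and in all other kept cells (bar, range over 6 libraries), in CPM on a log scale. Csf1r, at 350 to 406 CPM in macrophages, and every other gene shown lie right of the bar of the other cells.

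C1q, which defined the members, is secreted by macrophages and tags dying cells for uptake. C1qb averaged 1213 CPM and was at 2.23 CPM in other cells. The promoters of C1qb and C1qc are shown because their genes chose the cells, and those of the mannose receptor gene Mrc1 and the folate receptor gene Folr2 because the members were divided by Mrc1 and Folr2 moved with it. Each run is 300 bases, from 250 before the annotated start to 50 after it, from RefSeq on GRCm38.p6, read 5′ to 3′ on the gene's strand. Capitals mark AGGAAGT or its reverse complement ACTTCCT, which holds the GGAA core that PU.1 and other ETS factors bind.
Mrc1 promoter, chr2:14229164-14229463, plus strand: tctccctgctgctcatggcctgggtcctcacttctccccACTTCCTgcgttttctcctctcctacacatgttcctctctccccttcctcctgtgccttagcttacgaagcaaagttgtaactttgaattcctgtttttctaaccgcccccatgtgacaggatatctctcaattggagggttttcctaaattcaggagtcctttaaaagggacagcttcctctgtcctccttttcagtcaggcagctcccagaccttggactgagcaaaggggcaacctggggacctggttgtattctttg
C1qb promoter, chr4:136886151-136886450, minus strand: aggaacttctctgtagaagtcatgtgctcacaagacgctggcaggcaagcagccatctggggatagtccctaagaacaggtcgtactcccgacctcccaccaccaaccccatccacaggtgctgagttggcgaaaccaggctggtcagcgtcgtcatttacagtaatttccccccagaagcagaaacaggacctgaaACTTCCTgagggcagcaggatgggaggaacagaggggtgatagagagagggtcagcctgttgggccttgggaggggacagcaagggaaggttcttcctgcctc
C1qc promoter, chr4:136892865-136893164, minus strand: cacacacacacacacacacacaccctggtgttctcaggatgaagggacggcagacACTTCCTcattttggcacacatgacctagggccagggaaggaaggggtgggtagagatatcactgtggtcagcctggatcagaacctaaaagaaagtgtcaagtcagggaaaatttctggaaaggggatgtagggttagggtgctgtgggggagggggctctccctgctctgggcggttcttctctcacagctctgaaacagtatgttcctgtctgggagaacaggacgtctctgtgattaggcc
Folr2 promoter, chr7:101857141-101857440, minus strand: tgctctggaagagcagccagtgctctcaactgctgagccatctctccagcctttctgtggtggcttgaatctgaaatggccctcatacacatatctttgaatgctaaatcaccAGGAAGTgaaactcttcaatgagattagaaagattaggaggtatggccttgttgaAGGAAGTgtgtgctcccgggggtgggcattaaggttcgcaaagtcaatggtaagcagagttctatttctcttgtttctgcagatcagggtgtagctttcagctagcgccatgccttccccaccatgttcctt
The motif begins 211 bases before the start in Mrc1, 53 bases before it in C1qb, 195 bases before it in C1qc, and 137 and 82 bases before it in Folr2. It was searched on either strand and occurs in 3072 of 32851 RefSeq promoters (9.35%). Of 14 genes looked up (Mrc1, the 3 C1q genes and the 10 genes named below as higher with Mrc1) 11 had a promoter in the table, and 6 held the motif in at least 1 promoter. Tbc1d4 and Abca1, with the largest rises, and Ctla2b, Dhx15 and Ap1b1 did not. The promoter of another annotated Folr2 start did not hold it. The 9.35% counts promoters and not genes, and the genes were chosen from these data. Whether the motif is enriched was not tested. A match is a run of letters and no evidence of binding.

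Cells on either side of the C1q limit had Csf1r and Mrc1. The 55 members with 8 to 11 C1q UMIs had a Csf1r UMI in 83.6% of cells and Mrc1 at 1092 CPM, and the 38 cells with 4 to 7 C1q UMIs had a Csf1r UMI in 89.5% and Mrc1 at 911 CPM. The 157 cells that met the other limits with 0 C1q UMIs had Mrc1 at only 54.1 CPM and the granulocyte gene S100a8 at 2597 CPM. Monocyte genes rose by steps as C1q fell. Ccr2 was at 66.4 CPM in all members, 135 CPM at 8 to 11 C1q UMIs, 294 CPM at 4 to 7 and 400 CPM at 0. Plac8 was at 49.6, 119, 257 and 858 CPM in the same order. The C1q limit thus left out cells with both Mrc1 and more Ccr2 and Plac8 than members. In all members Mrc1 was at 1053 CPM. These values describe the limit and were not tested.

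Scavenger receptors and their partners were abundant in the members. Of 17 genes of a resident scavenger list 12 were higher than in other cells of every library. Pf4, the chemokine that led the genes ranked by their level over other cells, averaged 2703 CPM against 7.55 CPM. Mrc1, the mannose receptor CD206, averaged 1095 CPM against 3.16 CPM, Lyve1, a hyaluronan receptor, 1023 CPM against 3.79 CPM, and F13a1, the A subunit of clotting factor XIII, 1064 CPM against 3.93 CPM. Stab1, a scavenger receptor for apoptotic cells, averaged 693 CPM against 3.20 CPM. The scavenger genes of other resident macrophages were low. Timd4 was at 10.0 to 23.7 CPM, Cd163 at 1.74 to 12.7 CPM and Vsig4 and Cd5l at no more than 2.47 CPM. To compare shares of cells across depths each cell was thinned to 3000 UMIs, which left out 5 members. Mrc1 was found in 72.6% to 94.0% of thinned members by library (89.7% to 97.0% unthinned), F13a1 in 85.6% to 94.2%, Stab1 in 71.0% to 83.5% and Lyve1 in 57.8% to 75.6%. The share of thinned Pdgfra-positive cells with any of these 4 genes did not pass 1.45%.

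Mrc1 varied between libraries. It was at 2053 CPM in the E14.5 LOF library and 851 CPM in the E13.5 LOF library, at 1750 and 624 CPM in the E14.5 controls and at 810 and 482 CPM in E13.5 controls. Lyve1 was at 1283 and 961 CPM in the LOF libraries, at 991 and 774 CPM in the E14.5 controls and at 1118 and 1008 CPM in E13.5 controls. Mrc1 was thus high in the E14.5 LOF library and E14.5 control replicate 1. The same libraries had the highest Maf (1180 and 1149 CPM, against 521 to 662 CPM in the other 4) and Zeb2 (533 and 615 CPM, against 209 to 269 CPM). They also stood apart in Gm42418, a predicted gene, at 1415 and 812 CPM against 75.4 to 144 CPM in the other 4. All other kept cells divided the libraries in the same way. In them the sum of a list of 4 genes with Gm42418 was at 2407 and 2995 CPM, against 160 to 361 CPM. This difference was thus not confined to macrophages, and its part in the Mrc1 levels was not tested.

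Genes of uptake and degradation were present. Of 12 genes of an apoptotic cell uptake list 8 were higher than in other cells of every library, and 3 averaged 100 CPM or more. Gas6, the bridging ligand by which Mertk and Axl see dying cells, averaged 404 CPM in members, with Mertk at 20.3 to 42.3 CPM and Axl at 10.0 to 19.8 CPM, below the 32.8 to 70.7 CPM of other cells. Of 17 lysosome and lipid genes 14 were higher than in other cells of every library, led by the lipid carrier gene Apoe at 3242 CPM and the protease gene Ctsb, at 1351 to 2303 CPM. Trem2, a lipid receptor, was at 117 to 310 CPM. All 11 iron and haem genes were higher than in other cells of every library. Among them were the haem oxygenase gene Hmox1, at 112 to 318 CPM, and the iron exporter gene Slc40a1, at 93.8 to 158 CPM.

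Genes of signals and of their receptors were both present. Of 14 cytokine and chemokine receptor genes 12, and of 11 pattern recognition and Fc receptor genes 11, were higher in members than in other cells of every library. Of 13 chemokine genes 12 were likewise higher, with Ccl2, Ccl3, Ccl4, Ccl7, Ccl9, Ccl12, Ccl24 and Pf4 each above 100 CPM in every library. Interleukin genes were scarce, with Il1b at 5.30 to 34.7 CPM, Tnf at 12.9 to 51.9 CPM and Il6 and Il10 at no more than 5.12 CPM. Igf1, a growth factor gene, had a median of 150 CPM in members and 169 CPM in Pdgfra-positive cells, and Tgfb1 194 CPM in members, 196 CPM in Cpa3-high cells and 13.8 CPM in Pdgfra-positive cells. The Csf1r ligand gene Csf1 had a median of 10.9 CPM in Pdgfra-positive cells and 1.97 CPM in macrophages themselves. The other ligand gene, Il34, was at 1.63 CPM in Pdgfra-positive cells and 0 CPM in members (medians over 6 libraries). Class II antigen presentation was rare. H2-Aa was at 0 to 61.7 CPM, and 14 members with 20 or more class II UMIs held most of them, as in E14.5 control replicate 1, where 4 members held 335 of 377.

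Between E14.5 and E13.5 no macrophage gene passed the test (edgeR quasi-likelihood, 2 libraries a stage, 0 of 8585 genes at adjusted p under 0.05, 0%). At an unadjusted p under 0.05 there were 577 genes (6.72%), and DESeq2 called 6. The stages did not overlap for 1708 genes that were higher at E14.5 (19.9%) and 1581 that were lower (18.4%). Early response genes, the transcription factors and regulators that cells induce within minutes of a stimulus, lay to 1 side. All 12 tested had a log2 fold change above 0, with a median of 0.92 where the median of all genes was 0.02, and 11 had control stages that did not overlap. Fos was at 1310 CPM in the E14.5 LOF library and 762 CPM in the E13.5 LOF library. In controls it was at 1650 and 1685 CPM at E14.5, against 737 and 922 CPM at E13.5 (log2 0.96, SE 0.27, adjusted p = 0.712). Egr1 was at 565 CPM in the E14.5 LOF library and 291 CPM in the E13.5 LOF library. In controls it was at 594 and 409 CPM at E14.5, against 209 and 228 CPM at E13.5 (log2 1.13, SE 0.27, adjusted p = 0.696). The LOF libraries thus had the same order for these genes. The E14.5 LOF library and E14.5 control replicate 1 stood apart together in Gm42418, and all other cells did so in the summed list that holds it. Whether the LOF order is independent of the controls was not tested. The summed list was at 3924 CPM in the E14.5 LOF library and 2662 CPM in the E13.5 LOF library, at 5260 and 5008 CPM in the E14.5 controls and at 2689 and 2692 CPM in E13.5 controls. In all other cells the sums were 1905 and 1960 CPM in the LOF libraries, 1884 and 2519 CPM in the E14.5 controls and 1077 and 1056 CPM in E13.5 controls. The control stages thus had the same order in macrophages and in all other cells.

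Inflammatory genes had the same direction in controls. Of 7 tested cytokine list genes 6 had a fold change above 0, with a median of 1.30. In LOF 6 genes of the list were higher at E14.5 and 5 lower. The summed list was at 370 and 378 CPM in the E14.5 and E13.5 LOF libraries. In controls it was at 546 and 539 CPM at E14.5, against 349 and 328 CPM at E13.5. In all other cells of the controls the sums had the same order, at 127 and 143 CPM against 71.4 and 70.5 CPM. Cxcl2, a neutrophil chemoattractant, was at 396 and 178 CPM in the E14.5 controls, against 117 and 55.4 CPM in E13.5 controls (log2 1.66, SE 0.42, adjusted p = 0.696 by edgeR). Nfkbiz, a regulator induced by NF-kappaB, was at 112 and 86.5 CPM, against 36.6 and 33.0 CPM (log2 1.45, SE 0.30, adjusted p = 0.476). Ccr2, the chemokine receptor of monocytes, was at 178 and 88.1 CPM at E14.5, against 42.2 and 38.3 CPM at E13.5 (log2 1.64, SE 0.35, adjusted p = 0.514). In LOF it was at 64.7 CPM at E14.5 and 38.2 CPM at E13.5. The thinned share of members with Ccr2 was 10.3% and 3.60% in the E14.5 and E13.5 LOF libraries, 22.0% and 17.2% in the E14.5 controls and 5.45% and 6.45% in the E13.5 controls (0% to 0.0635% in Pdgfra-positive cells). Ccr2 therefore had no overlap of the stages within controls, and the same order in LOF. By the naming rule the other genes that were higher without passing were Plac8, Fosb, Rgs18, Wfdc17, Ppp1r15a, Btg2 and Pim1, at log2 1.43 to 1.55 (edgeR adjusted p 0.514 to 0.712), and 9 of all 10 such genes were also higher in the E14.5 than in the E13.5 LOF library.

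Glycolysis genes lay the other way. Of 9 tested 8 had a fold change below 0, with a median of −0.86, and 7 had control stages that did not overlap. Ldha, lactate dehydrogenase, was at 453 CPM in the E14.5 LOF library and 780 CPM in the E13.5 LOF library. In controls it was at 464 and 666 CPM at E14.5, against 1083 and 1118 CPM at E13.5 (log2 −1.0, SE 0.30, edgeR adjusted p = 0.712). Aldoa, aldolase, was at 374 and 523 CPM in the E14.5 controls, against 830 and 899 CPM in E13.5 controls (log2 −0.98, SE 0.30, adjusted p = 0.712). All 9 genes were lower at E14.5 in LOF. The summed list was at 3085 CPM in the E14.5 LOF library and 5571 CPM in the E13.5 LOF library, at 3032 and 4463 CPM in the E14.5 controls and at 6640 and 6969 CPM in E13.5 controls. In all other cells the sums had the same order, at 3024 and 4412 CPM in the LOF libraries, 3691 and 4727 CPM in the E14.5 controls and 5426 and 5729 CPM in E13.5 controls. Trem2 was at 117 CPM in the E14.5 LOF library and 220 CPM in the E13.5 LOF library. In controls it was at 133 and 146 CPM at E14.5, against 310 and 240.5 CPM at E13.5 (log2 −1.02, SE 0.27, adjusted p = 0.712). Chchd10, a mitochondrial protein gene, was the other gene named as lower without passing (log2 −1.19). Fibroblast markers moved along: their sum in members was 1950 CPM in the E14.5 LOF library and 540 CPM in the E13.5 LOF library, 1041 and 985 CPM in the E14.5 controls and 339 and 381 CPM in E13.5 controls. All 6 defining fibroblast genes had a stage fold change above 0, and their part in the results was not tested. Without members over 1% of such UMIs 0 genes passed, and the Ccr2 difference was log2 1.66. The count of calls depended on which libraries were in the fit. Without E14.5 control replicate 2 it was 1661, without E14.5 control replicate 1 it was 86, without E13.5 control replicate 1 it was 23 and without E13.5 control replicate 2 it was 7. Each of these fits has 1 library in a stage, which is assumed to vary like the 2 libraries of the other stage. Without both control replicates 2 each stage has 1 control library and no test.

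**Figure D2:**
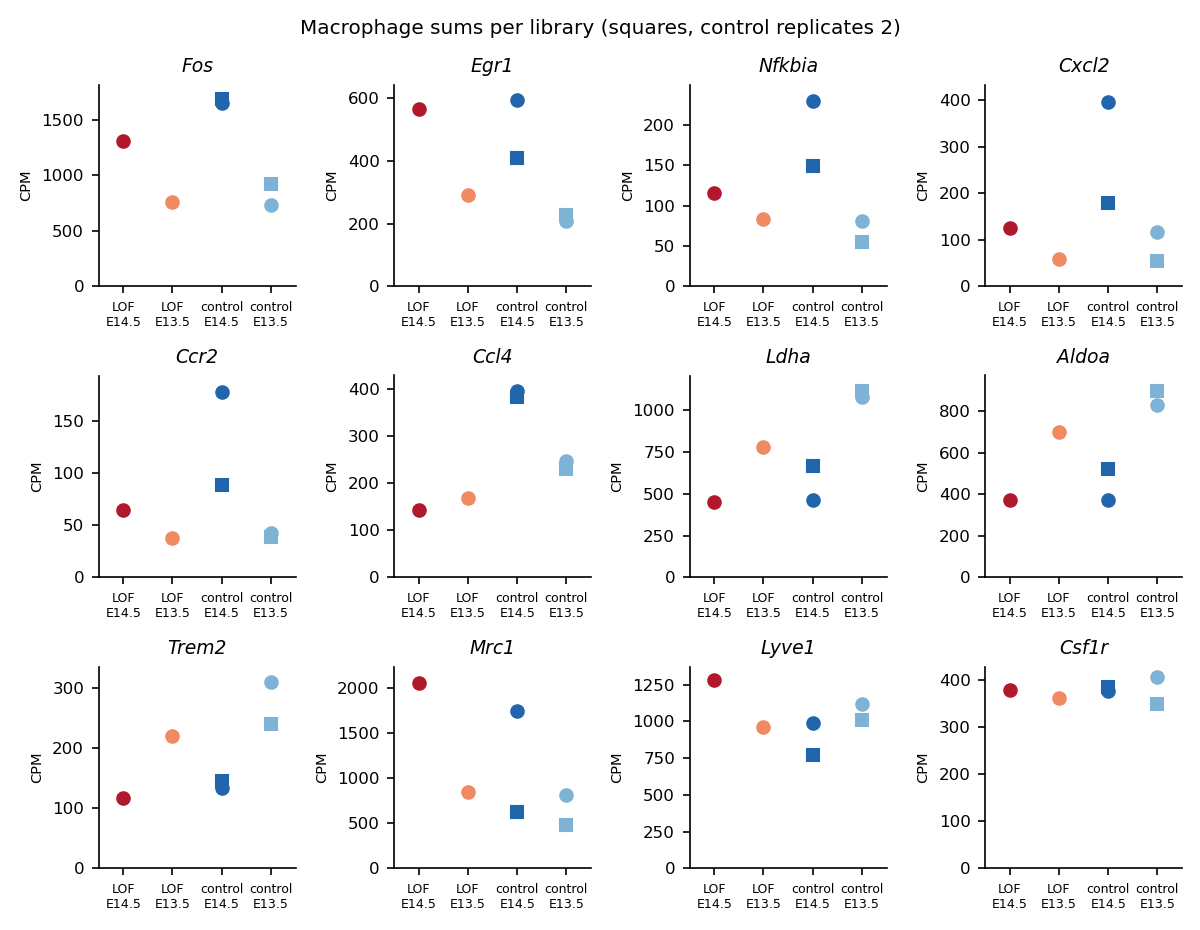
Level of 12 genes in macrophages, in CPM from 0, with 1 point per library. Control replicates 2 are squares. Fos, Egr1 and Ccr2 are higher and Ldha, Aldoa and Trem2 lower at E14.5 in LOF and in controls, Ccl4 is lower in LOF, and Csf1r stays between 350 and 406 CPM.

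Between LOF and control embryos no macrophage gene passed the test either (edgeR with stage as a covariate, 2 against 4 libraries, 0 of 9471 genes, 0%), with 247 genes at an unadjusted p under 0.05 (2.61%) and 0 by DESeq2. Leaving out the E13.5 LOF library or E14.5 control replicate 2 gave 1 call, and leaving out any other library gave 0. A fit without a LOF library assumes that the other LOF library varies like the controls. The groups did not overlap for 434 genes that were higher in LOF (4.58%) and 247 that were lower (2.61%). Ccl4, a chemokine for monocytes and lymphocytes, was the only gene that met the naming rule. It was at 144 CPM in the E14.5 LOF library and 168 CPM in the E13.5 LOF library, against 396 and 384 CPM in the E14.5 controls and 247 and 230 CPM in E13.5 controls (log2 −1.03, SE 0.26, adjusted p = 0.955). Both LOF values were under all 4 controls. Of 13 chemokine genes 11 had a fold change below 0, with a median of −0.56, and none passed. Ccl2, a ligand of Ccr2, was at 432 and 392 CPM in the E14.5 and E13.5 LOF libraries, 534 and 498 CPM in the E14.5 controls and 357 and 269 CPM in E13.5 controls, within the range of the controls. Of 11 iron and haem genes 10 (median −0.34) and of 9 glycolysis genes 9 (median −0.40) had a fold change below 0, none passing. Of all 9471 genes 50.5% were above 0. In all other cells the glycolysis sum was also lower in LOF. It was 3024 CPM against 3691 and 4727 CPM in controls at E14.5, and 4412 CPM against 5426 and 5729 CPM at E13.5. In members the E14.5 LOF sum of 3085 CPM lay between its controls, at 3032 and 4463 CPM. Without both control replicates 2 the test called 10 genes, a setting chosen after the data were seen. Of these 9 were higher in LOF, namely Col3a1, Itm2a, Nrk, Ptn, H19, Igf2, Cdkn1c, Dlk1 and Meg3, and Cxcl2 was lower (log2 −1.39, adjusted p = 0.0139). H19 was at 187 to 619 CPM in members and 1326 to 2412 CPM in other kept cells, Col3a1 at 80.7 to 556 CPM and 650 to 2750 CPM, and 5 of 6 fibroblast markers had a fold change above 0 in members (median 0.59). Their part in these calls was not tested.

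Macrophages differed among themselves along Mrc1. Of 745 thinned members 624 had at least 1 Mrc1 UMI and 121 had 0, and the sums of these cells were compared within each of the 6 libraries. Members without Mrc1 are here those with 0 UMIs of it after thinning. Mrc1 was found in 72.6% to 94.0% of members by library after thinning and in 89.7% to 97.0% before it. Part of the members called without Mrc1 thus held its RNA, at a level that thinning can miss. The edgeR quasi-likelihood test with library as a block called 47 of 2528 genes higher (1.86%) and 34 lower (1.34%) in members with Mrc1, at adjusted p under 0.05. In every library 170 genes (6.72%) were higher and 75 (2.97%) lower.

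F13a1 was at 967 to 1798 CPM with a median of 1147 CPM in members with Mrc1, against 364 to 637 CPM with a median of 550.5 CPM in members without (log2 1.12, SE 0.13, edgeR adjusted p = 1.35e-08, higher in 6 of 6 libraries). Folr2 was at 91.3 to 200 CPM with a median of 136 CPM in members with Mrc1, against 0 to 147 CPM with a median of 33.7 CPM in members without (log2 1.31, SE 0.32, adjusted p = 0.00977, 6 of 6). Of 7 tested scavenger list genes 4 rose (F13a1, Folr2, Fcgrt and Ccl24), all 7 had a fold change above 0, and the median was 1.12. Lyve1 (log2 1.66, adjusted p = 0.0713) and Stab1 (log2 1.43, adjusted p = 0.0760) were higher in 6 of 6 libraries without passing. Another random thinning of the same cells put both past the test. Of 10 chemokine genes 4 rose, Ccl2, Ccl7, Ccl12 and Ccl24, and Ccl6 fell. In another thinning Ccl2 (log2 0.31, adjusted p = 0.379) and Ccl24 (log2 0.50, adjusted p = 0.110) did not pass. Ccl7, a ligand of Ccr2, was at 182 to 378 CPM with a median of 253.5 CPM, against 15.2 to 198 CPM with a median of 120 CPM (log2 1.15, SE 0.24, adjusted p = 0.00139, 6 of 6). Gas6 rose (log2 1.22, adjusted p = 0.0166), as did the neonatal Fc receptor gene Fcgrt (log2 1.12, adjusted p = 0.000634), Ctsb (log2 0.53) and Maf (log2 0.46). C1qa rose by log2 0.69, and 4 of the 5 genes of the member rule rose, which the choice of members by their sum can touch. The largest rises among the genes of the naming rule were Tbc1d4 (log2 2.62), the cholesterol exporter gene Abca1 (1.83), Smim1 (1.68), Ctla2b (1.64) and the leukotriene C4 synthase gene Ltc4s (1.54), followed by Dhx15, Tln2, Necap2, Folr2 and Ap1b1.

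Monocyte genes were among the lower ones. Ccr2 was at 0 to 131 CPM with a median of 28.0 CPM in members with Mrc1, against 98.0 to 333 CPM with a median of 159 CPM in members without (log2 −2.57, SE 0.52, adjusted p = 0.0250, lower in 6 of 6 libraries). Plac8, a gene of monocytes, was at 6.85 to 63.8 CPM with a median of 15.1 CPM, against 68.6 to 288 CPM with a median of 116 CPM (log2 −3.00, SE 0.47, adjusted p = 0.000634, 6 of 6). Both tested genes of the monocyte marker list fell. Cd52, a surface glycoprotein of leukocytes, was at 51.3 to 131 CPM with a median of 80.0 CPM, against 176 to 433 CPM with a median of 326 CPM (log2 −1.97, SE 0.22, adjusted p = 6.68e-09, 6 of 6). Of 5 antigen presentation genes 1 fell. This was Cd74, the invariant chain of class II molecules, which fell by log2 2.54 (adjusted p = 0.00158, 5 of 6 libraries). Its level in members without Mrc1 was 1444 CPM in E14.5 control replicate 1 and 29.4 to 267 CPM in the other 5 libraries. E14.5 control replicate 1 had only 6 members without Mrc1, in which Lyve1, Stab1, Pf4, Gas6 and Folr2 were all at 0. The other named falls were Lsp1 (log2 −1.65), Tmem176a (−1.65), Ccl6 (−1.55), Btg2 (−1.01), Fuca1, Oser1 and Tspo (−0.69). Cycling members were 55.8% of those with Mrc1 and 56.2% of those without.

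The split rests on 1 gene and few cells, and its calls moved with the random thinning. High doublet scores were more frequent in members without Mrc1 in every library. Leaving them out took the members without Mrc1 from 10 to 5 in the E14.5 LOF library and from 22 to 13 in E13.5 control replicate 1. Those with Mrc1 went from 146 to 115 and from 88 to 75. The part of doublets in single calls was not tested. A second draw called 141 genes, 50 of the first 81 among them, and 74 of 77 that both draws tested kept their direction. DESeq2 called 52. Without the E14.5 LOF library edgeR called 51 genes, without the E13.5 LOF library 49, without E14.5 control replicate 2 it called 40, and without both control replicates 2 it called 52. F13a1, Folr2, Gas6, Fcgrt, Ccl7, Ccl12, Cd52, Plac8, Ccr2, Cd74, Lsp1, Ccl6 and Tmem176a passed in both draws. C1qa did too, but the choice of members by the C1q sum can touch it. Abca1 (log2 0.70, edgeR adjusted p = 0.110), Tbc1d4 (log2 1.26, adjusted p = 0.107), Necap2, Ap1b1, Ccl2, Ccl24, Fuca1 and Oser1 did not pass in the second. Dhx15 turned to log2 −0.03 (edgeR adjusted p = 0.988). Of the named genes Tbc1d4, Abca1, Necap2, Plac8, Cd52, Lsp1, Tmem176a, Ccl6 and Btg2 passed without any single library, and the others lost the call without at least 1. Ccr2 had log2 −2.53 (adjusted p = 0.117) without the E14.5 LOF library, log2 −2.68 (adjusted p = 0.0646) without E14.5 control replicate 2 and log2 −2.61 (adjusted p = 0.116) without both control replicates 2. Folr2 did not pass without the E13.5 LOF library or without E14.5 control replicate 2.

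**Figure D3:**
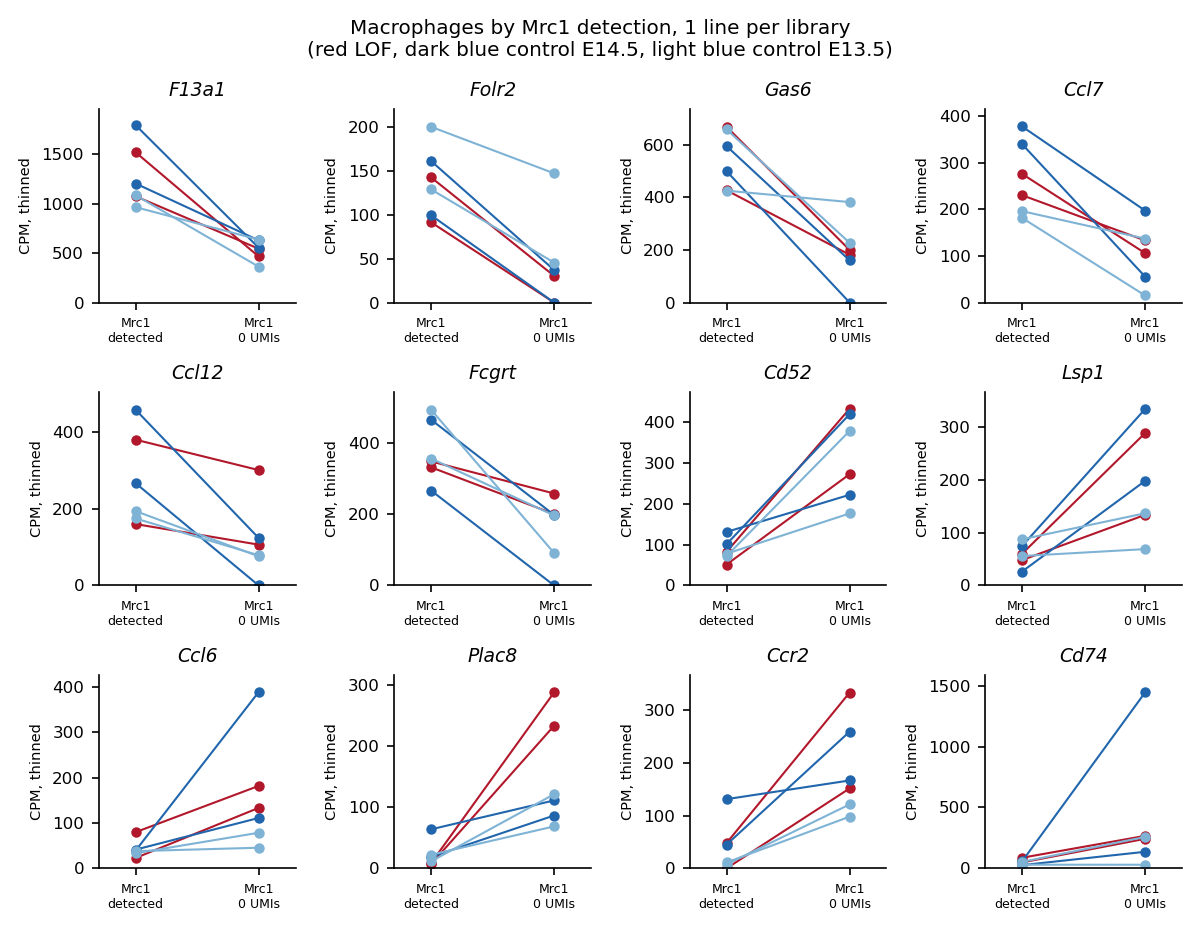
Level of 12 genes in macrophages with at least 1 Mrc1 UMI (left) and with 0 (right) after thinning, in CPM from 0, with 1 line per library. F13a1, Folr2, Gas6, Ccl7, Ccl12 and Fcgrt are higher in the cells with Mrc1 in 6 of 6 libraries and Cd52, Lsp1, Ccl6, Plac8 and Ccr2 lower, with Cd74 lower in 5.

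RNA of cell cycle genes was found in many macrophages. After thinning, 60.3% of the E14.5 LOF members and 57.6% of the E13.5 LOF members had at least 2 UMIs of the 8 cycle genes Mki67, Top2a, Cdk1, Ccnb1, Ccnb2, Cdc20, Birc5 and Ube2c, and these cells are called cycling here. In the E14.5 controls the share was 52.0% and 42.2%, and in the E13.5 controls 52.7% and 66.9%. The LOF shares lay within the range of the controls, and the mean over 6 libraries was 55.3% ± 8.40 (SD). In Pdgfra-positive cells the shares were 39.3% and 29.7% in the LOF libraries, 52.4% and 49.6% in the E14.5 controls and 43.8% and 59.1% in the E13.5 controls, lower than in the macrophages of the same library in 4 of 6 libraries and higher in both E14.5 controls. At 4 or more UMIs the mean macrophage share was 31.55%, so the share depends on the limit.

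The 416 cycling members were compared with the 329 others. With library as a block edgeR called 79 of 2403 genes higher (3.29%) and 88 lower (3.66%), the 8 cycle genes left out. In every library 124 genes (5.16%) were higher and 109 (4.54%) lower. Lyz2 was at 376 to 897 CPM with a median of 644 CPM in cycling members, against 710 to 1453 CPM with a median of 963 CPM in the others (log2 −0.73, SE 0.08, adjusted p = 2.22e-16, lower in 6 of 6 libraries). Of 13 tested lysosome and lipid genes 9 fell, with a median of −0.52. The cathepsin gene Ctss was at 163 to 256 CPM with a median of 220 CPM, against 285 to 373 CPM with a median of 344 CPM (log2 −0.65, SE 0.13, adjusted p = 1.00e-05, 6 of 6). Apoe (log2 −0.72, adjusted p = 0.0442), Trem2 (−0.66, 5 of 6) and Lgals3 (−0.87) fell with it. Of 12 identity genes 5 fell and all 12 were below 0, and Csf1r was lower in 6 of 6 libraries without passing (log2 −0.23, adjusted p = 0.233). Of 4 growth factor genes 3 fell, among them Igf1 (log2 −0.62, 5 of 6). Of 8 iron and haem genes 3 fell, among them Hmox1 (log2 −0.50, 4 of 6) and Ftl1 (−0.22, 6 of 6). Cdkn1a, an inhibitor of the cell cycle, was at 16.7 to 74.8 CPM with a median of 49.1 CPM, against 67.8 to 130 CPM with a median of 90.3 CPM (log2 −0.90, SE 0.25, adjusted p = 0.00713, 6 of 6). The other named falls were Dusp3, Clec4a3, Rgs2, Trf, Cd53, Lsp1 and C5ar1, at log2 −0.73 to −1.04. Among the higher genes were genes of division, which the split implies, such as the centromeric histone gene Cenpa (log2 2.40), Incenp (1.49), Tuba1c (1.11) and Rrm1 (1.05), beside the serine synthesis gene Psat1 (1.10), Syce2, Cmc2, Uhrf2, Lsm2 and Urm1. All 5 genes of the member rule fell, C1qa among them, which the choice of members by their sum can touch. Of the named genes Cmc2, Uhrf2, Urm1, Clec4a3, Cdkn1a, Lgals3, Lsp1 and C5ar1 lost the call without at least 1 library, and Cdkn1a did so without the E13.5 LOF library and without E13.5 control replicate 2. A second thinning called 139 genes, 85 of the 167 among them, and 158 of 164 that both draws tested kept their direction. In it Lyz2 (log2 −0.45, edgeR adjusted p = 0.0202), Ctss, Trem2, Igf1, Dusp3, Clec4a3, Rgs2, Trf, Cenpa, Incenp, Tuba1c, Cmc2, Uhrf2 and Lsm2 passed again. C1qa, a gene of the member rule, also passed again. Apoe (log2 −0.63, adjusted p = 0.0751), Lgals3 (log2 −0.66, adjusted p = 0.160), Cdkn1a (log2 −0.68, adjusted p = 0.105), Hmox1, Ftl1, Cd53, Lsp1, C5ar1, Rrm1, Psat1 (log2 0.42), Syce2 (log2 0.23) and Urm1 did not, and Csf1r did (log2 −0.39, adjusted p = 0.0140). DESeq2 called 44 genes, 38 higher and 6 lower, and without both control replicates 2 edgeR called 97.

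**Figure D4:**
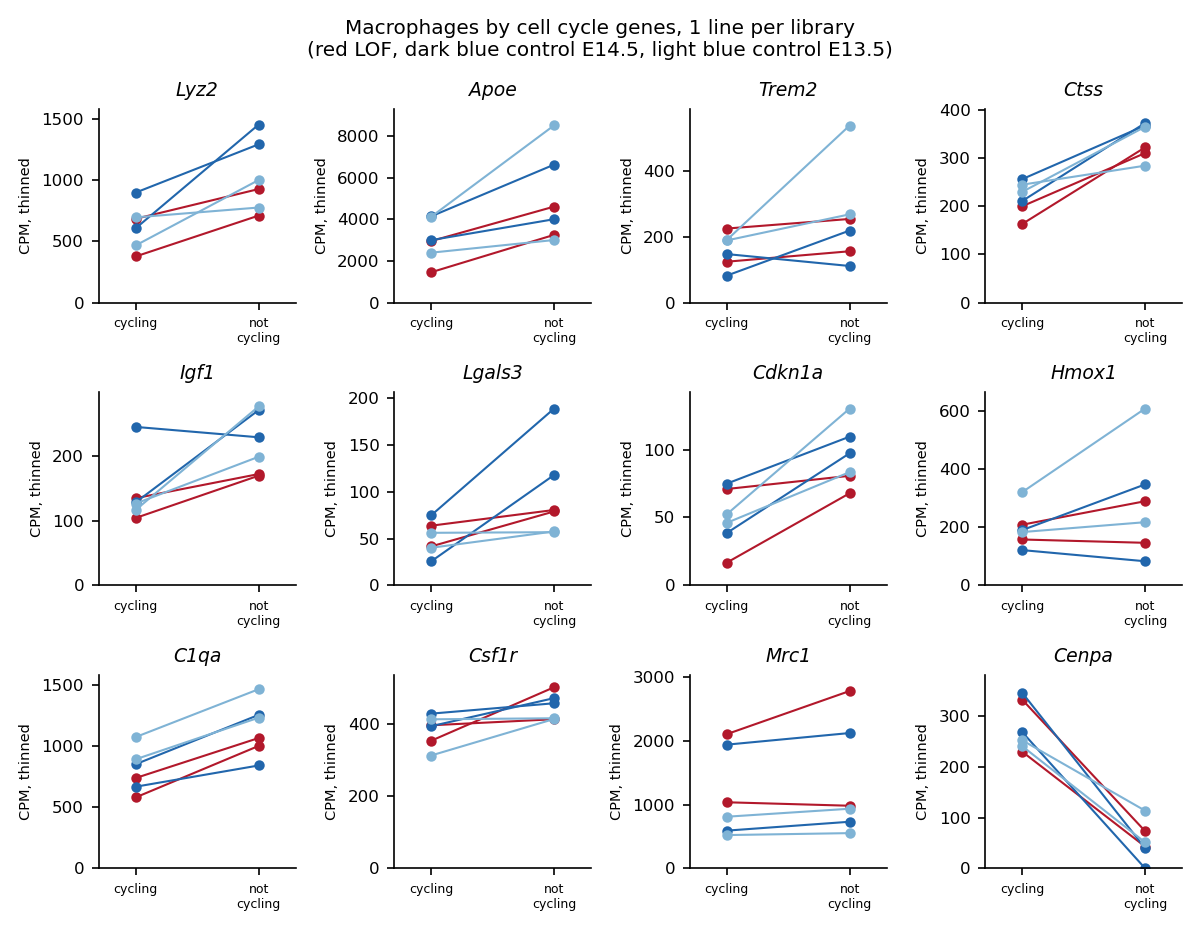
Level of 12 genes in cycling macrophages (left) and the others (right) after thinning, in CPM from 0, with 1 line per library. Lyz2, Apoe, Ctss, Lgals3, Cdkn1a, C1qa and Csf1r are lower in cycling members in 6 of 6 libraries, and Cenpa is higher. C1qa is a gene of the member rule, which can touch its values.

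A few macrophages held large amounts of haemoglobin RNA. At least 100 haemoglobin UMIs, a cut chosen after the values were seen, were found in 7 of 158 members (4.43%) of the E14.5 LOF library and 6 of 139 (4.32%) of the E13.5 LOF library, in 5 of 100 (5%) and 3 of 119 (2.52%) in the E14.5 controls, and in 3 of 110 (2.73%) and 0 of 124 (exact 95% upper bound 2.93%) in the E13.5 controls. In all there were 24 of 750 members (3.20%), against 159 of 39903 other cells (0.398%). These 24 held 111 to 12627 haemoglobin UMIs, with a median of 4863.5, and the other members held at most 19. Outside haemoglobin, Mrc1 was at 926 CPM in them and 1075 CPM in the other members, and Csf1r at 343 CPM and 383 CPM. They also held RNA of Alas2, the haem synthesis gene of red cells, which was found in 21 of 24, and 15 of 24 had a high doublet score. Hmox1 was at 87.7 CPM in them and 219 CPM in the other members, and Slc40a1 at 61.9 and 120 CPM. The embryonic haemoglobin gene Hbb-y made up 0.0332% of their haemoglobin UMIs in the E13.5 LOF library and 0% in E13.5 control replicate 1, against 17.4% and 12.7% in all haemoglobin-rich cells that were not macrophages of the same libraries. Among the latter in the E13.5 LOF library it was 0.0141% in 2 Cpa3-high cells, 0.0324% in 2 Pdgfra-positive cells and 71.0% in 1 keratin-high cell. A low Hbb-y share was thus not particular to macrophages. Engulfed red cells and red cells caught in the same droplet cannot be told apart here.

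**Figure D5:**
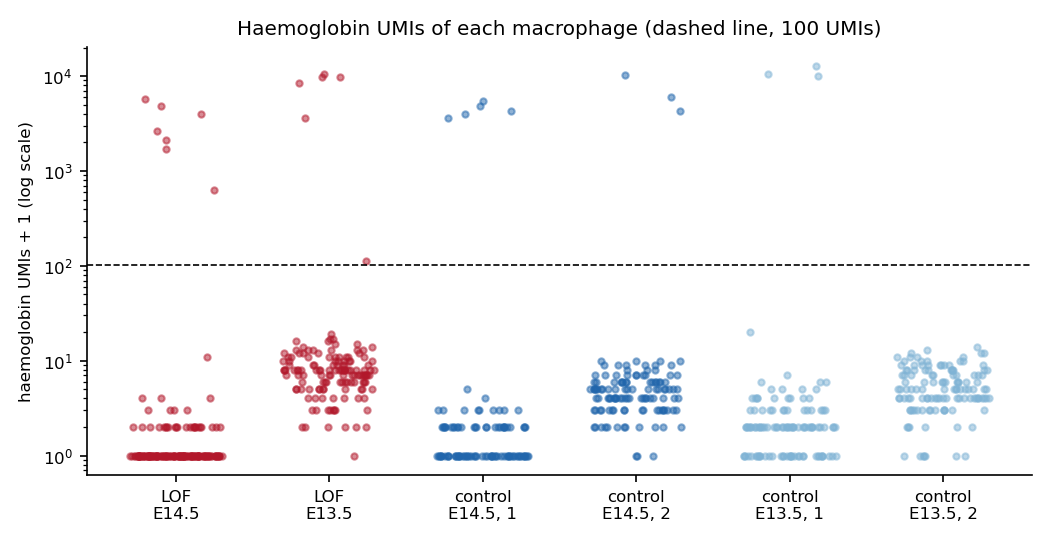
Haemoglobin UMIs of each macrophage by library, with 1 added, on a log scale, 1 point per cell. The dashed line marks 100 UMIs, which 24 of 750 members reach, none of them in E13.5 control replicate 2.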

How the data were processed

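Libraries were made with the 10x 3′ v2 kit and sequenced by Illumina, per the labels' protocols. The deposited files hold UMI counts per gene and barcode, and the submitters' processing notes name Cell Ranger, Seurat and the mm10 build with no versions. Kept cells and members were chosen as stated, the members, gene lists and tests with earlier results of these data known. Counts were summed over the members of each library. Sums were tested with edgeR 4.0.16 (R 4.3.3; quasi-likelihood, robust, TMM, filterByExpr, Benjamini-Hochberg adjustment over all genes tested, threshold 0.05). The stage fit used the 4 controls. The genotype fit used all 6 libraries with stage. The splits used members thinned to 3000 UMIs with library as a covariate. DESeq2 1.42.0, no filter, other size factors, other limits, another thinning and leaving out each library were alternatives. The test was checked on simulated counts. Nothing says that replicate libraries came from separate litters, so p-values measure the spread between these libraries. Named genes were up to 10 rises and 10 falls by fold change among genes past the threshold that had a mean of 5 or more in log2 CPM, the same direction in every pair of libraries and a mean level in members at or above that of other cells, with predicted, ribosomal, mitochondrial and haemoglobin genes and pseudogenes left out. With fewer than 5 passing, genes at an unadjusted p under 0.01 were named as not passing, and list genes may be named beside them. Marker genes Itgam and Clec7a were not analysed here. Doublet scores came from simulated doublets, and members with high scores were kept.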

Additional observations from a re-analysis of the deposited data

Results flagged for a closer look

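Plac8 differed in direction between genotypes. Its level in members was 23.7 CPM in the E14.5 LOF library and 62.1 CPM in the E13.5 LOF library, a log2 difference of −1.35 between stages. In the controls it was 132 and 42.0 CPM at E14.5, against 22.5 and 33.0 CPM at E13.5 (log2 1.55, SE 0.48, edgeR adjusted p = 0.712). The difference between genotypes was not tested.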

How the results depend on the processing

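Between stages, where no gene was called, no filter on low counts gave 95 calls, DESeq2 6, a fit of all 6 libraries with genotype 24 and one with library pairs 45. Leaving out 1 library gave 7 to 1661. Replicates of the same number had deviations that correlated at 0.20 over 2 pairs and no label says that they share a litter or day. With the replicate number as a block there were 116 calls. Between genotypes, where no gene was called, no filter gave 64, library pairs 13, both control replicates 2 left out 10, and leaving out 1 library 0 to 1. For the Mrc1 split, with 81 calls, no filter gave 198, DESeq2 52, another thinning 141, both control replicates 2 left out 52, and leaving out 1 library 40 to 115. In the other thinning Dhx15 had log2 −0.026 in place of 1.53. For the cycling split, with 167 calls, DESeq2 gave 44, another thinning 139 (85 of the 167 among them), both control replicates 2 left out 97 and leaving out 1 library 123 to 167. The mean macrophage share was 1.60% at 16 or more C1q UMIs, against 1.86%, the cycling share 31.55% at 4 or more UMIs, against 55.3%, and the Mrc1 share 66.6% at 2 or more UMIs, against 83.5%. Leaving out members of high doublet score, of over 1% fibroblast UMIs or of 100 or more haemoglobin UMIs kept each count within 1.5 times. The cause of these differences was not tested. In sums over all 100 to 158 members of a library, genes at a few CPM rest on single UMIs. In the Mrc1 split this limit lies higher. Members without Mrc1 numbered 6 in E14.5 control replicate 1 and 10 in the E14.5 LOF library, each thinned to 3000 UMIs. In these cells Ccl7 at 55.6 CPM in the former library and Necap2 at 33.3 CPM in the latter rest on single UMIs. The counts of libraries given for the direction of genes in this split include such values.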

Other observations

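A few members held a large part of the UMIs of some gene groups. In E14.5 control replicate 1, 1 member held 746 of the 747 UMIs of granulocyte granule genes found in all members of that library. In E13.5 control replicate 2, 1 member held 125 of 165 UMIs of interferon-induced genes. The 14 members with 20 or more class II UMIs numbered 4 in the E14.5 LOF library, 3 in the E13.5 LOF library, 4 and 0 in the E14.5 controls and 3 and 0 in the E13.5 controls. Their median was 25 C1q UMIs, against 32.5 in the other members, and 8 of 14 had an Mrc1 UMI after thinning. These cells were picked by their values and were not tested.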
